A study of Homo sapiens with 9 samples.

Results

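Keratins form the intermediate filaments of epithelial cells, and each filament pairs a type I with a type II keratin. KRT8 and KRT18, with KRT19 and KRT7, make up the filaments of simple, single-layered epithelium and of early embryonic epithelia, while KRT5 pairs with KRT14 in the basal layer of stratified epithelium such as epidermis, where KRT15 is also found. Undifferentiated human embryonic stem cells (hESCs) grow as an epithelium-like sheet and are known to carry KRT8 and KRT18. The 8 genes described here are the type II keratins KRT5, KRT7 and KRT8 and the type I keratins KRT14, KRT15, KRT18, KRT19 and KRT23. They were taken by name, with all 12 probe sets whose annotation names only one of them, of 54675 probe sets and 19775 genes in the table. KRT5, KRT7, KRT8 and KRT18 lie in the keratin cluster on chromosome 12, and KRT14, KRT15, KRT19 and KRT23 lie on chromosome 17.

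Expression was measured on 9 Affymetrix arrays of RNA from 3 established hESC lines, Shef1, H14 and Shef3, with 1 array per line in each of 3 groups. For the FGF3+10 group, dissociated cells grew on laminin over 14 days in DFNB medium (DMEM and F12 with the N2 and B27 supplements) to which both FGF3 and FGF10 had been added, each at 50 ng/ml. The DFNB group was treated alike but without these growth factors. The hESC group was undifferentiated, taken at day 0 from mouse embryonic fibroblast feeders, where basic FGF was given at 4 ng/ml, so that day, substrate and medium all differ between day 0 and day 14. The 3 arrays of a group differ in cell line, and no line was measured more than once in a group. The p-values of group differences are thus set against the spread between these lines. Fits with the cell line as a block, and the test for cell line, instead use the spread left once group and line means are taken away. Every array is of a whole culture, in which fewer cells carrying a keratin and less RNA per cell cannot be told apart.

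Levels are the deposited log values, taken as log2, so that a difference of 1 unit is called a difference of 1 log2 unit. Probe sets differ in brightness, so levels are compared between arrays and not between genes. The authors brought all arrays to the same median of 3.20, and the values have no lower bound. Low values were noisy: where the mean level of a gene lay between 0 and 4 its SD within a group had a median of 0.889, and where it lay between 9 and 11 one of 0.337. A level of 4 is used below to mark signal above the noisiest range, and 1 probe set per gene, the one with the highest mean, stands for the gene. The labels were set against pluripotency markers: the summed level above 4 of 16 pluripotency markers was 65.9, 57.3 and 21.7 in FGF3+10 cells of Shef1, H14 and Shef3, 65.1, 39.7 and 25.98 in DFNB cells, and 80.6 to 90.3 in hESC. The day 14 cultures of Shef1 thus kept more of this signal than those of Shef3. DNMT3L, a cofactor of DNA methylation in early cells, averaged -3.48 ± 0.44 in FGF3+10, -3.61 ± 1.08 in DFNB and 5.81 ± 1.15 in hESC (SD, n = 3 each). DPPA5, another of these markers, averaged -1.62 ± 0.40, -2.32 ± 0.38 and 2.37 ± 0.43 in the same groups, at levels below 4 throughout. The Shef1 arrays stood apart in all 3 groups. Their poly-A spike-ins, bacterial RNAs added before labelling, were at 7.21 to 7.28, against 4.72 to 5.43 on the other 6 arrays, and their ACTB level at the 3′ end was 11.6 to 11.7, against 12.3 to 12.9. Some results, among them differences of KRT5, KRT7 and KRT14 and the test for cell line, are therefore given without Shef1 as well.

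KRT8, KRT18 and KRT19, the keratins of simple epithelium, were above a level of 9 on every array, before as well as after differentiation. KRT8, the type II keratin with which KRT18 pairs, stood at 9.46, 11.71 and 11.79 in FGF3+10 cells of Shef1, H14 and Shef3, at 10.11, 11.97 and 11.83 in DFNB cells and at 9.26, 10.48 and 11.36 in hESC. Both day 14 values were above the day 0 value in each line, but the groups overlapped, because the Shef1 arrays lay 1.65 to 2.29 units below the mean of the other lines. KRT18 stood at 11.10, 12.36 and 12.27 in FGF3+10, at 11.51, 12.58 and 12.29 in DFNB and at 11.16, 11.62 and 12.30 in hESC. In Shef3 the 3 KRT18 levels lay within 0.03 units of each other, and only in H14 were both day 14 levels more than 0.7 units above day 0. KRT19, a type I keratin of simple epithelium, stood at 9.67, 11.17 and 10.21 in FGF3+10, at 10.02, 11.20 and 11.11 in DFNB and at 9.48, 10.78 and 10.32 in hESC. Over the 9 arrays KRT18 spanned 1.49 units, KRT19 1.72 and KRT8 2.70.

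KRT7, a type II keratin of glandular, urothelial, trophoblast and amnion epithelium, was above a level of 4 before differentiation in H14 and Shef3 and higher after it in every line. It stood at 4.50, 8.16 and 8.56 in FGF3+10 cells of Shef1, H14 and Shef3, at 5.25, 9.76 and 8.32 in DFNB cells and at 3.71, 5.89 and 6.54 in hESC. Each line was lowest at day 0, while the hESC levels of H14 and Shef3 lay above both day 14 levels of Shef1. KRT23, a type I keratin of which less is known, stood at 1.26, 5.83 and 5.05 in FGF3+10, at 1.59, 3.96 and 3.55 in DFNB and at -1.69, 1.92 and -1.09 in hESC. It too was lowest at day 0 in every line, and it passed a level of 4 on 2 arrays, those of FGF3+10 H14 and Shef3. In Shef1 it stayed in the noisy range.

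The basal keratins of stratified epithelium were seen on few arrays. KRT5 stood at -2.73, 3.21 and 5.62 in FGF3+10 cells of Shef1, H14 and Shef3, at -2.25, 6.18 and -2.09 in DFNB cells and at -1.50, -3.66 and -3.41 in hESC. It was thus above 4 on 2 arrays, DFNB H14 and FGF3+10 Shef3, near 3 on FGF3+10 H14, and below 0 on the other 6. KRT14, its partner, stood at -0.09, 2.83 and 2.98 in FGF3+10, at 2.26, 6.81 and 3.88 in DFNB and at 2.05, 1.79 and 1.92 in hESC. It was above 4 on 1 array, DFNB H14, where KRT5 was high as well. On FGF3+10 Shef3, where KRT5 was at 5.62, KRT14 was at 2.98. KRT15, a type I keratin of basal cells, stood at -3.02, 1.23 and -0.86 in FGF3+10, at -3.59, 2.19 and 1.08 in DFNB and at -0.38, -0.73 and -1.17 in hESC, and reached 4 on no array.

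**Figure D1:**
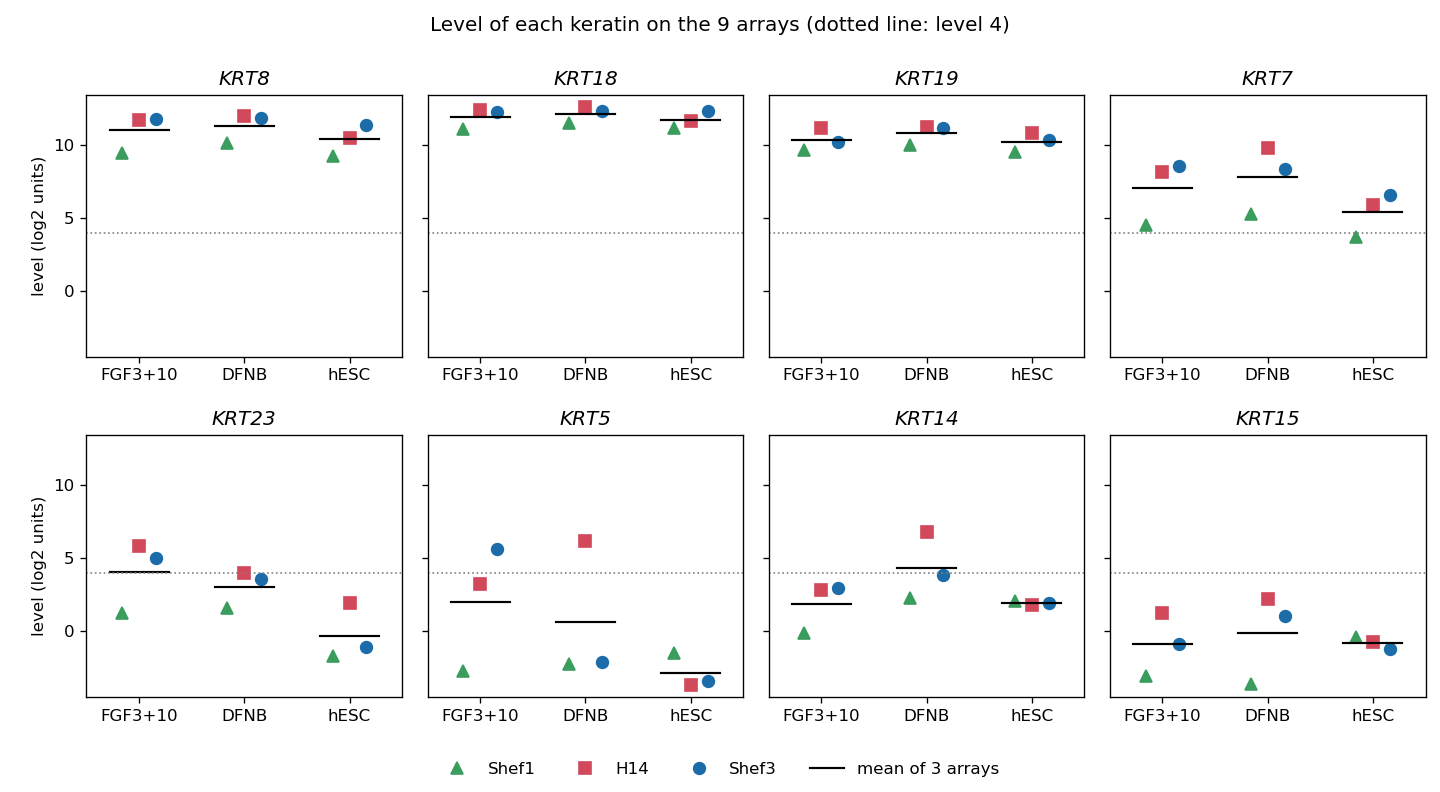
Level of each of the 8 keratins on the 9 arrays, in log2 units, by group, with a symbol for each cell line and a bar at the mean of 3 arrays. KRT8, KRT18 and KRT19 lay above 9 everywhere, whereas KRT5 and KRT14 lay above the dotted line at 4 on 2 arrays and 1 array.

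Set against day 0, no keratin passed the test in either medium. In limma's model of the 3 groups, with Benjamini-Hochberg adjustment over 19775 genes, 0 of 8 keratins had an adjusted p below 0.05 between FGF3+10 and hESC, where 0.177% of all genes did. It was also 0 of 8 between DFNB and hESC, where 0.202% did. At an unadjusted p below 0.05 it was 1 of 8 in each, KRT23, against 12% and 15.8% of all genes. With the cell line as a block, these counts at an unadjusted p were 2 of 8 for FGF3+10 (KRT7 and KRT23), against 16.9% of all genes, and 4 of 8 for DFNB (KRT7, KRT8, KRT14 and KRT23), against 21.5%. The block, too, left 0 of 8 past the adjusted threshold, against 0.582% of all genes for FGF3+10 and 0.956% for DFNB.

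KRT23 had the lowest p of the 8. It averaged 4.04 ± 2.44 in FGF3+10 and -0.29 ± 1.94 in hESC (SD, n = 3 each), a difference of 4.33 log2 units (95% interval 1.25 to 7.41, limma adjusted p = 0.251). In DFNB it averaged 3.03 ± 1.27, which was 3.32 units above hESC (0.24 to 6.40, adjusted p = 0.290). With the block the adjusted p was 0.0576 for FGF3+10 and 0.0730 for DFNB. Setting all values below 4 to 4 left 0.96 units for FGF3+10 and none for DFNB, since the hESC levels and the DFNB levels of KRT23 all lie in the noisy range. KRT7 averaged 7.07 ± 2.24 in FGF3+10, 1.69 units above the 5.38 ± 1.48 of hESC (-1.54 to 4.92, adjusted p = 0.669). In DFNB it averaged 7.77 ± 2.30, which was 2.39 units above hESC (-0.84 to 5.62, adjusted p = 0.437). These intervals hold the spread between lines, since the block brought the adjusted p of KRT7 to 0.190 for FGF3+10 and 0.0825 for DFNB. Without Shef1, KRT7 was 2.14 units above hESC in FGF3+10 and 2.82 in DFNB, with adjusted p of 0.211 and 0.116. Leaving out single arrays moved these differences both ways. The FGF3+10 value was 0.86 without hESC Shef1, 0.95 without FGF3+10 Shef3 and 2.98 without FGF3+10 Shef1, and the DFNB value 1.56 without hESC Shef1, 1.40 without DFNB H14 and 3.66 without DFNB Shef1.

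The keratins of simple epithelium differed less. KRT8 averaged 10.99 ± 1.32 in FGF3+10, 11.30 ± 1.04 in DFNB and 10.37 ± 1.05 in hESC, so that it was 0.62 units (-1.25 to 2.49) above hESC in FGF3+10 and 0.94 (-0.93 to 2.80) in DFNB. The adjusted p was 0.803 and 0.603. KRT18 averaged 11.91 ± 0.70, 12.13 ± 0.55 and 11.69 ± 0.57 in the same groups, and was 0.22 (-0.88 to 1.32) and 0.44 units (-0.66 to 1.53) above hESC. KRT19 averaged 10.35 ± 0.76, 10.78 ± 0.66 and 10.19 ± 0.66, and was 0.15 (-1.06 to 1.36) and 0.58 units (-0.63 to 1.79) above hESC. The intervals of KRT18 and KRT19 are the narrowest of the 8 and leave out a shift of 2 units in either direction.

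KRT5 had the widest interval. It averaged 2.04 ± 4.30 in FGF3+10 and -2.85 ± 1.18 in hESC, a difference of 4.89 units (-1.04 to 10.82, adjusted p = 0.493). In DFNB it averaged 0.61 ± 4.82, which was 3.47 units above hESC (-2.46 to 9.40, adjusted p = 0.543). With values below 4 set to 4, these differences were 0.54 and 0.73 units. The DFNB value rests on H14: without that line it was 0.28 units. Leaving out Shef1 brought the FGF3+10 value to 7.95, leaving out H14 to 3.90 and leaving out Shef3 to 2.82. KRT14 averaged 1.91 ± 1.73 in FGF3+10 and 1.92 ± 0.13 in hESC, a difference of -0.01 units (-2.67 to 2.64). By line this difference was -2.14 in Shef1, 1.04 in H14 and 1.06 in Shef3, and without Shef1 it was 1.05. In DFNB KRT14 averaged 4.32 ± 2.31, which was 2.39 units above hESC (-0.26 to 5.05, adjusted p = 0.358). The DFNB difference was 1.08 without H14 and 0.94 with values below 4 set to 4. KRT14 was the only member whose 3 DFNB arrays all lay above the 3 hESC arrays, as 7.8% of all genes did, although its lowest DFNB level exceeded the highest hESC level by little, 2.26 in DFNB Shef1 against 2.05 in hESC Shef1. Between FGF3+10 and hESC this held for 0 of 8, against 5.68% of all genes. KRT15 averaged -0.88 ± 2.12 in FGF3+10, -0.11 ± 3.07 in DFNB and -0.76 ± 0.40 in hESC, and neither difference had a settled sign under the alternatives tried.

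Counted by line, 0 of 8 keratins were lower than in hESC in all 3 lines in either medium, where 24.6% of all genes were in FGF3+10 and 25.9% in DFNB. In turn, 3 of 8 keratins (KRT7, KRT8 and KRT23) were higher in FGF3+10 than in hESC in all 3 lines, against 13.3% of all genes. In DFNB it was 5 of 8, the same genes with KRT14 and KRT19, against 15.9%. The 8 differences from hESC had a median of 0.42 units in FGF3+10 with 6 of 8 above 0, where the median of all genes was -0.19, and of 1.66 in DFNB with 8 of 8 above 0, where that of all genes was again -0.19. The FGF3+10 median was 0.17 without H14 and 1.09 without Shef1, and the DFNB median 0.66 and 2.70. After quantile normalisation the FGF3+10 median was 0.67, where that of all genes was -0.06. With the mean of all probe sets of a gene the medians of the keratins were 0.13 in FGF3+10 and 0.79 in DFNB. With values below 4 set to 4 they were 0.54 and 0.73, over the 7 keratins that reach 4.

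**Figure D2:**
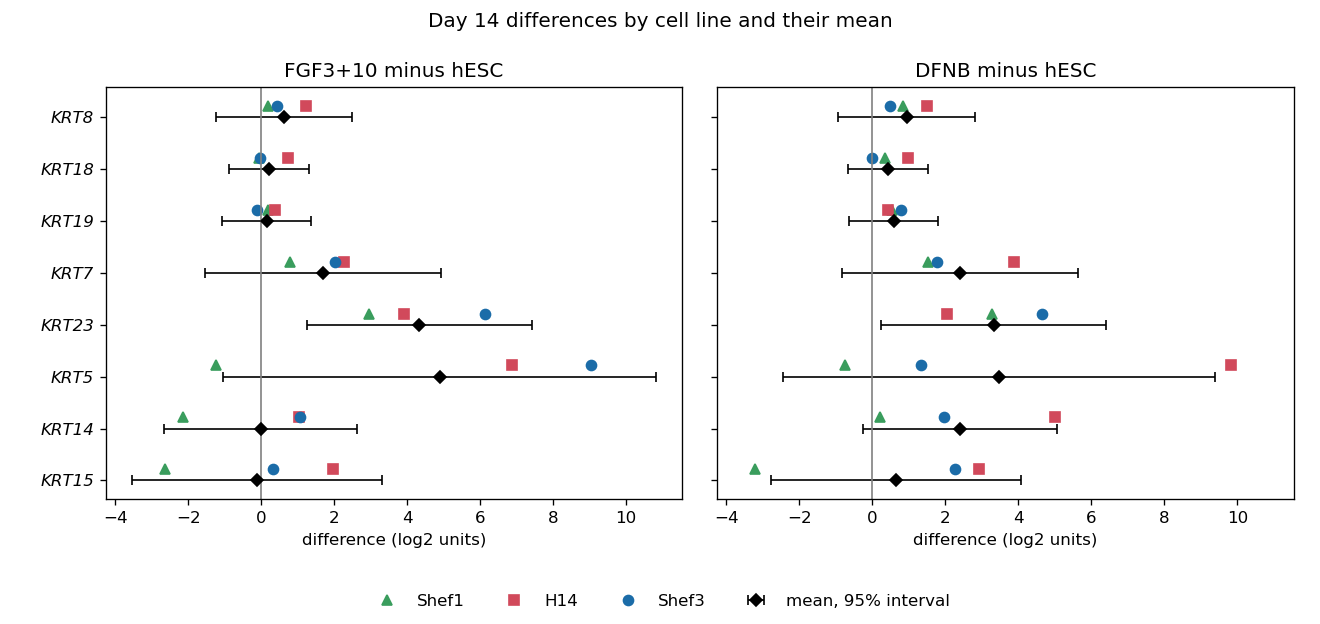
Difference of each keratin from hESC, in log2 units, for FGF3+10 (left) and DFNB (right), by cell line (coloured symbols) and as the mean with limma's 95% interval (black). KRT23 and KRT7 were above 0 in all 3 lines in both media, while the lines disagreed in sign for KRT5 and KRT15.

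The third comparison asks what FGF3 and FGF10 added to DFNB medium, and both groups also serve in the comparisons above. Between FGF3+10 and DFNB, limma called 0 of 8 keratins at an adjusted p below 0.05, against 0% of all genes. At an unadjusted p below 0.05 it was 0 of 8, against 1.52%, and with the cell line as block 1 of 8, KRT14, against 2.72%. KRT14 was 2.41 units lower in FGF3+10 in the mean (difference -2.41, interval -5.06 to 0.25, adjusted p = 1.00) and lower in each line, by -2.35 in Shef1, -3.98 in H14 and -0.90 in Shef3. The mean difference was -1.16 without DFNB H14, the only array on which KRT14 passed 4, -1.41 without FGF3+10 Shef1, and -0.94 with values below 4 set to 4. KRT5 was 1.42 units higher in FGF3+10 in the mean (-4.51 to 7.35), but the lines went opposite ways, with -0.48 in Shef1, -2.96 in H14 and 7.71 in Shef3. KRT23 was 1.01 units higher (-2.07 to 4.09), by 1.86 in H14 and 1.49 in Shef3, while Shef1 differed by -0.33. KRT7, KRT8, KRT18 and KRT19 differed by -0.70 (-3.93 to 2.53), -0.32 (-2.18 to 1.55), -0.22 (-1.32 to 0.88) and -0.43 units (-1.64 to 0.78). KRT8, KRT14, KRT18 and KRT19, 4 of 8, were lower in FGF3+10 in all 3 lines, against 12.5% of all genes. None was higher in all 3 lines (9.4% of all genes), and for 0 of 8 did all FGF3+10 arrays lie above all DFNB arrays (1.46%).

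In the order of group means, DFNB lay highest for KRT7, KRT8, KRT14, KRT15, KRT18 and KRT19, and FGF3+10 for KRT5 and KRT23. hESC lay lowest for KRT5, KRT7, KRT8, KRT18, KRT19 and KRT23. For none of the 8 did neighbours in this order pass the adjusted threshold.

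A single array held most of the highest levels. DFNB H14 had the highest of the 9 levels for 7 of 8 keratins, all but KRT23, whose highest was in FGF3+10 H14. Among all genes 10.5% were highest in DFNB H14, and 10.2% of genes with a mean of at least 9. After quantile normalisation, which was chosen for this count after seeing the data, it was 4 of 8, against 9.10% of all genes. The hybridisation spike-ins on DFNB H14 stood at 9.49, second to the 9.68 of hESC Shef3, while the other 7 arrays lay between 8.73 and 9.13, and their part in the result was not tested.

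The arrays of Shef1 were low in most of the keratins. Shef1 had the lowest level of the 3 lines in every group for 5 of 8 keratins, KRT7, KRT8, KRT18, KRT19 and KRT23, as did 18.1% of all genes. For 4 of 8, KRT7, KRT8, KRT18 and KRT19, all Shef1 arrays lay below all other arrays, as for 11.2% of all genes and 12.6% of those with a mean of at least 9. Against the mean of H14 and Shef3, averaged over the groups, Shef1 was lower in KRT7 (difference -3.39 units), KRT23 (-2.82), KRT8 (-1.91), KRT19 (-1.08) and KRT18 (-0.98). For comparison, the median of this difference over the 1603 genes with a mean level of 9 to 11 was -0.04, and 1 in 10 of them (the 10th percentile) lay below -0.60. It was -0.25 over the 253 genes above 11. At the lower levels of KRT7 and KRT23 the spread was wider, with 10th percentiles of -1.25 for genes with a mean of 4 to 7 and -1.29 for those of 0 to 4.

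The moderated F test for cell line, in limma's model of group and line, called 0 of 8 keratins at an adjusted p below 0.05, against 0.46% of all genes. At an unadjusted p below 0.05 it was 5 of 8, against 20.3%. The lowest adjusted p were 0.0616 for KRT7, 0.0645 for KRT8, 0.0985 for KRT23 and 0.109 for KRT19. These values are sensitive to how the noise of low genes is handled: with values below 4 set to 4, KRT8 (adjusted p = 0.0282), KRT7 (0.0407) and KRT19 (0.0442) were called, and the same 3 when genes with a mean below 4 were left out. The first setting called 3 of the 7 keratins tested and 468 of 13406 genes. The second called 3 of the 4 keratins tested and 491 of 11502 genes. Without Shef1, the adjusted p of KRT7, KRT8 and KRT19 were 0.906 to 0.984, so that no difference between H14 and Shef3 was detectable. Alongside the keratins, the ACTB level at the 3′ end on the Shef1 array differed from the mean of the others by -0.74 units in FGF3+10, -0.79 in DFNB and -1.14 in hESC, and the poly-A spike-ins were higher in every group. The part of array handling in the Shef1 levels was not tested, and line and handling cannot be told apart here.

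**Figure D3:**
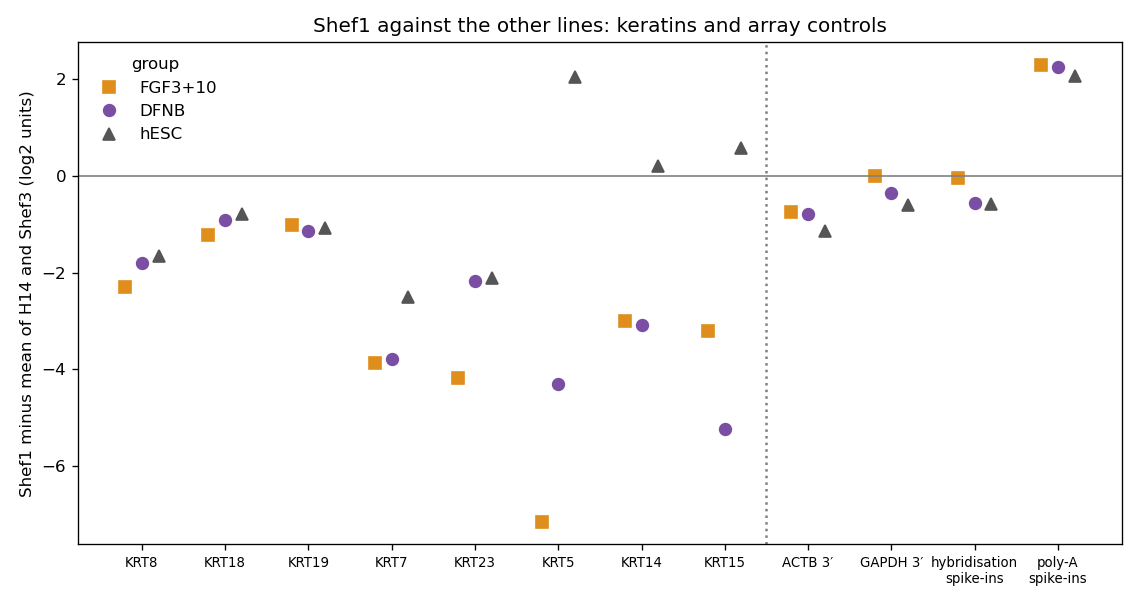
Level in Shef1 minus the mean of H14 and Shef3, in log2 units, for the 8 keratins and 4 sets of array controls, by group. KRT7, KRT8, KRT18, KRT19 and KRT23 were below 0 in all 3 groups, as was ACTB, and the poly-A spike-ins were above 2 in each.

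KRT5, KRT14 and KRT15 showed this order at day 14 but not at day 0. In hESC, Shef1 lay above the mean of H14 and Shef3 by 2.03 units for KRT5, 0.19 for KRT14 and 0.58 for KRT15, where all levels are low. At day 14 it lay below, by -7.14, -2.99 and -3.20 units in FGF3+10 and by -4.29, -3.08 and -5.23 in DFNB. KRT15 stayed below 4 at day 14 too, and KRT14 passed 4 only on DFNB H14. The KRT5 difference in DFNB rests on H14, at 6.18, since Shef3 (-2.09) and Shef1 (-2.25) were close. Shef1 also had the highest summed level of pluripotency markers at day 14, as given above, and the part of such cells in these differences was not tested.

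The partners KRT8 and KRT18 varied together over the 9 arrays, with a Pearson correlation of 0.98, and of 0.94 after the mean of each line was taken away. KRT7 followed KRT8 with 0.96, and 0.94 within lines. KRT5 and KRT14 correlated at 0.68 and 0.59 within lines. The lowest value of all pairs within lines was -0.02, between KRT5 and KRT19. These are descriptions over 9 arrays that share 3 lines and 3 groups, and KRT8 and KRT18 are measured by probe sets of a kind (suffix _x_at) that may bind other transcripts. RefSeq names 52 pseudogenes of KRT8, 68 of KRT18 and 5 of KRT19, whose transcripts, if any, cannot be told apart here. KRT7 has 3 more probe sets and KRT19 has 1 more. None of these reached 2.8 on any array, and their differences from hESC were -1.38 to -0.07 units in FGF3+10 and -1.20 to 0.10 in DFNB. When all probe sets of a gene were averaged, the KRT7 difference was -0.18 units in FGF3+10 and 0.25 in DFNB, so the KRT7 values above rest on its bright probe set.

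Among 11498 other genes with a mean of at least 4, the likest to the mean of KRT8 and KRT18 over the 9 arrays was FBXW5, part of a ubiquitin ligase, with a Pearson correlation of 0.991. HM13, a signal peptide peptidase, PCNX3, RELA, a subunit of NF-kappa-B, and SCAMP2, a membrane trafficking protein, followed at 0.984 to 0.985. The likest to KRT7 were IGFBP2, which binds insulin-like growth factors, at 0.992, and TEAD3, a transcription factor of the Hippo pathway, and MAP7D1, both at 0.983. The likest to KRT19 was HTR1E at 0.975, to KRT23 BOC, a Hedgehog co-receptor, at 0.973, to KRT15 ADCY7 at 0.969, to KRT14 LURAP1L at 0.956 and to KRT5 CORO2B at 0.917. With 9 arrays and so many genes, high values arise readily, and these carry no test.

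Other keratins were mostly dim. Of 17 other keratins of epithelium measured, 0 passed the test in any comparison. KRT10, the type I keratin of suprabasal epidermis, was the only one above 4 on every array, at 8.79 to 9.09 in FGF3+10, 9.10 to 9.22 in DFNB and 8.61 to 8.82 in hESC. KRT16, a keratin of stressed and proliferating epidermis, passed 4 on 1 array, DFNB H14, at 5.0. It differed from hESC by -0.47 units in FGF3+10 and 3.05 in DFNB (adjusted p = 0.90 and 0.26). KRT13, a keratin of internal stratified epithelia, was below 0 on every array. Of 19 hair and root sheath keratins, 18 reached 4 on no array.

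The genes of the junctions to which keratins attach were measured as RNA on the same arrays. Of 14 desmosome genes, 9 reached a level of 4 on at least 1 array, 8 or 9 on each array, and 0 were called, with a median difference from hESC of 0.08 units in FGF3+10 and 0.29 in DFNB. The largest differences were in DSC1 and DSG3, cadherins of stratified epithelium. DSC1 was 3.05 units above hESC in FGF3+10 (adjusted p = 0.37) and 2.89 in DFNB (0.31), and DSG3 1.42 and 2.09 units, all at levels below 4. Of 9 linker and hemidesmosome genes, 5 to 7 reached 4 on the FGF3+10 arrays, 5 to 8 on those of DFNB and 5 or 6 on those of hESC. None was called (0 of 9), and the largest differences were in ITGB4 and EVPL. ITGB4, the integrin chain of the hemidesmosome, to which plectin ties KRT5 and KRT14 in basal cells, stood at 2.80, 5.98 and 4.99 in FGF3+10 cells of Shef1, H14 and Shef3, at 2.70, 7.10 and 5.30 in DFNB and at 2.93, 3.09 and 0.96 in hESC. EVPL, or envoplakin, was -1.67 units from hESC in FGF3+10 and -2.05 in DFNB, at levels below 2 on all arrays. DFNB H14 was the highest array for 7 of the 8 linker genes that reached 4 and for 5 of the 9 desmosome genes, as for 6 of the 7 keratins that did. Among all genes, whether or not they reached 4, 10.5% were highest there. LAMB3, of the linker genes, and KRT14 reached 4 on that array alone (5.68 and 6.81). For these genes the filter fixed the result.

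Genes of epithelial adhesion did not follow the keratins. Of 17 such genes, 1 had a difference from hESC above 0 in FGF3+10 and 2 in DFNB, and 0 were called. The medians were -0.85 and -1.18 units, where that of all genes was -0.19 in each medium. EPCAM, an epithelial adhesion molecule also used as an hESC surface marker, stood at 10.80, 10.72 and 9.5 in FGF3+10 cells of Shef1, H14 and Shef3, at 10.62, 9.82 and 9.72 in DFNB and at 11.55, 11.45 and 11.73 in hESC. EPCAM was below hESC in all 3 lines in both media. So were 24.6% of all genes in FGF3+10 and 25.9% in DFNB. EPCAM differed from hESC by -1.24 units in FGF3+10 (adjusted p = 0.29) and -1.52 in DFNB (0.16). CDH1, or E-cadherin, differed by -0.85 (0.48) and -0.95 units (0.33). The genes furthest from hESC in DFNB were CLDN4, a claudin of tight junctions, at 2.08 units, and OCLN, or occludin, at -2.02, with 1.87 and -1.72 in FGF3+10. VIM, the filament protein of mesenchymal and neural cells, lay between 11.73 and 12.34 in FGF3+10, 11.63 and 12.72 in DFNB and 11.70 and 12.47 in hESC. VIM was thus above a level of 9 on every array, as were KRT8, KRT18 and KRT19 but not the other members.

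**Figure D4:**
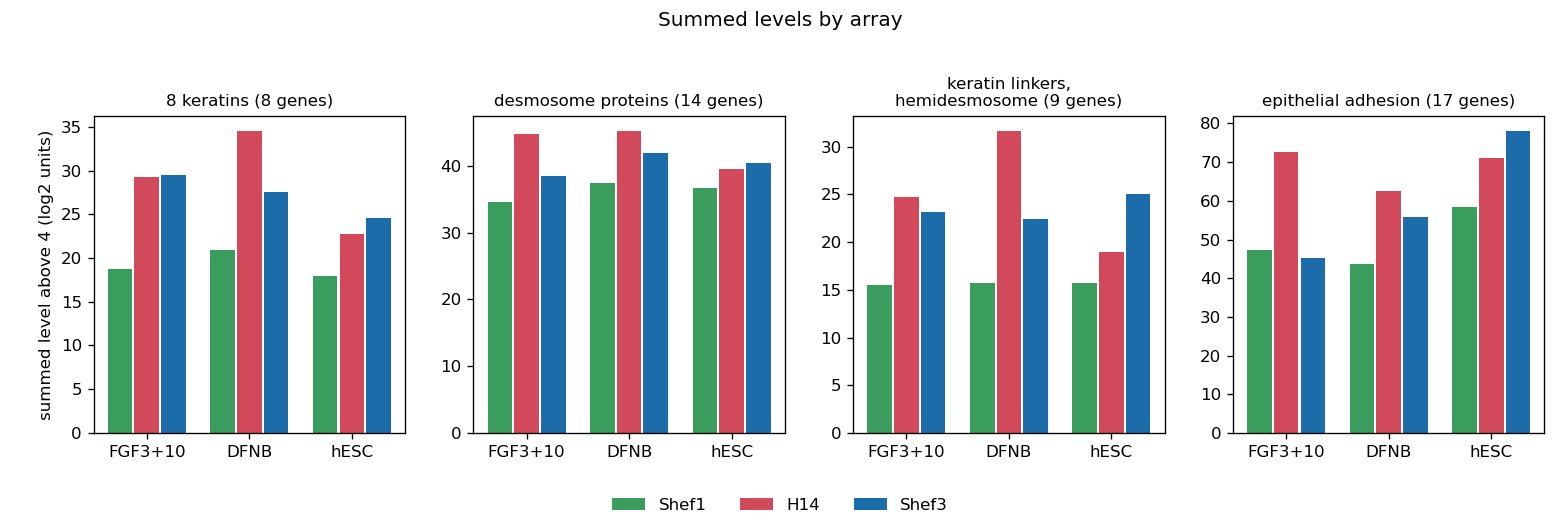
Summed level above 4, in log2 units, on each array for the 8 keratins, 14 desmosome genes, 9 linker and hemidesmosome genes and 17 epithelial adhesion genes, by group and cell line. DFNB H14 was highest for the keratins (34.5) and the linkers (31.6), and hESC Shef3 for the adhesion genes (77.99).

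Of 16 regulators of epithelial genes 0 were called, and 7 of 16 lay above hESC in each medium. Their median difference was -0.21 units in FGF3+10 and -0.16 in DFNB, where that of all genes was -0.19 in each. ESRP1 was among those below hESC, by -1.71 and -1.89 units. The largest differences were in MSX2 and TFAP2A, transcription factors of surface ectoderm and neural crest. MSX2 was 2.35 units above hESC in FGF3+10 and 2.62 in DFNB (adjusted p = 0.27 and 0.18). TFAP2A was 2.68 and 2.54 units above hESC (adjusted p = 0.12 and 0.11). Both were higher in all 3 lines, and with the cell line as block the adjusted p were 0.03 and 0.02 for MSX2 and 0.03 in each medium for TFAP2A. The block called 0.582% of all genes in FGF3+10 and 0.956% in DFNB. Of 12 markers of keratinocytes and surface ectoderm measured, 8 reached 4 on no array, among them IVL, FLG and LORICRIN, which serve in the outer layers of the epidermis, and 0 were called. The other 4 were SFN, WNT6, CLDN1 and SPRR1B. SFN, or stratifin, a 14-3-3 protein of epithelia, stood at 6.78, 9.71 and 8.18 in FGF3+10 cells of Shef1, H14 and Shef3, at 7.32, 10.52 and 8.68 in DFNB and at 8.26, 7.43 and 8.24 in hESC. WNT6, a Wnt ligand of surface ectoderm, was above 4 on every array, and SPRR1B on 1. CLDN1, a claudin of epidermis, had the largest difference, 3.23 units above hESC in FGF3+10 and 3.38 in DFNB (adjusted p = 0.11 and 0.08), and SPRR1B followed with 2.43 and 1.93. The summed level above 4 of these 12 markers was 8.73 to 10.53 in FGF3+10, 9.25 to 11.26 in DFNB and 4.80 to 8.07 in hESC. Much of this difference lay in CLDN1, at 7.66 to 9.29, 8.23 to 9.01 and 4.19 to 6.74. In the mean, 6 of 12 lay above hESC in FGF3+10 and 4 of 12 in DFNB, with medians of 0.09 and -0.24 units. The summed level of 16 trophoblast markers was 17.7 to 24.7, 17.5 to 26.9 and 12.4 to 18.6 in the same groups. Of these markers 0 were called, or 1, TFAP2A, in each medium with the block. Of these 16, 10 reached 4 on at least 1 array, while CGA, CYP19A1, ERVW-1 and GCM1 did so on none. ERVW-1 was -2.87 units from hESC in FGF3+10 and -1.81 in DFNB. The part of the markers of these lists in the keratin levels was not tested.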

How the data were processed

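RNA was amplified from the 3′ end (200 ng per sample) and hybridised to Affymetrix arrays, per the labels' protocols. The deposited values are log2 by assumption: the authors set all 9 arrays to 1 median, while no source used here gives the log base, the software or how background was corrected. Arrays have no read depth, and their number limits the precision. Of 54675 probe sets, 62 are controls, 41091 carry 1 gene symbol, 1801 several and 11721 none. 41037 symbols were updated through RefSeq, and 19775 genes remained.

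Differences were tested in R 4.3.3 with limma 3.58.1 (lmFit, eBayes, 1 shared spread, Benjamini-Hochberg over all genes, called below 0.05), tested on simulated data. The simulated arrays were independent, with no cell line effect, so they do not show how the fit behaves when lines pair the arrays. The lines pair the arrays by their label. Deviations from group means correlated within lines at 0.181 to 0.283 (FGF3+10 and hESC), 0.0861 to 0.338 (DFNB and hESC) and 0.331 to 0.713 (FGF3+10 and DFNB). Keratins and the 15 lists were chosen with earlier results of these data known. Named genes are the 8 keratins, of most lists those called or among the furthest from hESC, the likest genes, VIM, CDH1 and EPCAM. KRT10, KRT13, IVL, FLG, LORICRIN, SFN, WNT6, ISL1, IGFBP3, ACTA2, APOA1 and GATA4 were named after their values were seen. So were LAMB3, WT1, MSLN, LRRN4, CALB2, PDPN, CGA, CYP19A1, ERVW-1 and GCM1. Some list members are not analysed here.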

Additional observations from a re-analysis of the deposited data

Results flagged for a closer look

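In 3 keratins the cell lines moved opposite ways at day 14 in both media, and the difference between lines was not tested, since each line has 1 array per group. KRT5 differed from hESC by 6.87 log2 units in FGF3+10 and 9.84 in DFNB in H14 and by 9.03 and 1.32 in Shef3, but by -1.23 and -0.75 in Shef1. KRT15 differed by 1.97 in FGF3+10 and 2.92 in DFNB in H14 and by 0.32 and 2.26 in Shef3, but by -2.64 and -3.22 in Shef1, at levels below 4 throughout. KRT18 differed by 0.74 in FGF3+10 and 0.97 in DFNB in H14, but by -0.026 and -0.011 in Shef3, values close to 0.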

How the results depend on the processing

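No keratin was called between groups under any of the alternatives run, which included leaving out each array and each line. The lowest adjusted p over them was 0.0576, for KRT23 in FGF3+10 against hESC with the cell line as replicate block. The number of all genes called between FGF3+10 and hESC, 35 as reported, was 123 with a floor of 4, 66 without dim genes, 284 with array weights, 76 with a trend of the prior variance, 115 with the cell line as replicate block, 15 with only the groups compared and 0 to 32 leaving out arrays or lines. Between DFNB and hESC the number was 40, and in the same order 183, 122, 1612, 153, 189, 26 and 0 to 72. It was 0 between FGF3+10 and DFNB under each of these settings. Both counts against hESC were 0 without H14 and 0 without Shef3, and were 5 (FGF3+10) and 4 (DFNB) without Shef1. Array weights were estimated without full convergence. For cell lines, 91 genes were called, and 58 after quantile normalisation, 468 with a floor of 4, 491 without dim genes, 217 with the mean of probe sets, 338 with all probe sets fitted singly, 4475 with array weights, 598 with a trend, and 4 to 55 leaving out arrays or lines. Keratins called for cell line were 0 as reported, 3 of 7 with a floor of 4, 3 of 4 without dim genes, 3 with a trend, 7 with array weights, and 0 leaving out any array or line. The floor left 13406 genes to test, and leaving out dim genes left 11502. The following alternatives were chosen after seeing the data. Keratins highest in DFNB H14 were 4 of 8 after quantile normalisation, against 9.10% of all genes. Those with all Shef1 arrays lowest (4 as reported) were 2 of 8 after quantile normalisation, against 6.98%, and 2 of 8 with the mean of probe sets, against 11.9%. Those lowest in Shef1 in every group (5 as reported) were 3 of 8 with the mean of probe sets, against 19.7%. Signs turned for KRT14 and KRT15 between FGF3+10 and hESC, to 0.056 and 0.31 after quantile normalisation and to 0.53 and 0.96 with array weights. They also turned for KRT7 there, to -0.18 with the mean of probe sets, and for KRT5 between FGF3+10 and DFNB, to -0.19 with a floor of 4. Leaving out arrays or lines, the difference from hESC in FGF3+10 ran from -0.55 to 1.05 for KRT14, -1.18 to 1.14 for KRT15, -0.049 to 0.62 for KRT18 and -0.26 to 0.49 for KRT19, and that in DFNB from -0.49 to 2.59 for KRT15. Between FGF3+10 and DFNB it ran from -1.72 to 4.20 for KRT5, -1.96 to 0.59 for KRT7, -0.91 to 0.45 for KRT8, -2.52 to 0.38 for KRT15 and -0.53 to 0.19 for KRT18. The cause of these shifts was not tested. Values below 4, which hold most levels of KRT5, KRT14, KRT15 and KRT23, limit what can be said of those genes.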

Other observations

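Markers of amnion and mesothelium, tissues in which KRT7 is known, were measured in the same cultures, and 0 of 13 were called. In the mean, 8 of 13 lay above hESC in FGF3+10 and 8 of 13 in DFNB. WT1, MSLN, LRRN4, CALB2 and PDPN lay below hESC in both media. The largest differences in DFNB were in GABRP, a GABA receptor subunit, and VTCN1, a B7 family protein, both used as amnion markers. GABRP stood at 3.51, 9.60 and 5.92 in FGF3+10 cells of Shef1, H14 and Shef3, at 3.66, 10.35 and 10.91 in DFNB and at 3.15, 4.82 and 4.99 in hESC. It was thus high in DFNB H14 and Shef3 and in FGF3+10 H14, and low on every Shef1 array. VTCN1 stood at 2.83, 7.94 and 4.09 in FGF3+10, at 2.97, 7.65 and 8.84 in DFNB and at 1.25, 2.86 and 3.63 in hESC, with the same arrays high. ISL1, a transcription factor of amnion and other early tissues, had the largest difference in FGF3+10, 3.10 log2 units above hESC, and was 3.71 above it in DFNB (limma adjusted p = 0.41 and 0.25), and IGFBP3 0.22 and 1.47 units.

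Among markers of other cell types in these cultures, the summed level above 4 of 17 neural progenitor markers was 58.8 to 79.0 in FGF3+10, 49.0 to 73.1 in DFNB and 46.5 to 52.5 in hESC. SIX6, a transcription factor of the eye and forebrain, was the only one of them called, at 8.04 log2 units above hESC in FGF3+10 (limma adjusted p = 0.036), and 5.46 in DFNB (0.080). That of 18 mesenchyme markers was 52.8 to 103.2, 74.8 to 111.1 and 74.6 to 76.3, lowest in Shef1 in both media, with MGP and FBLN5 at 6.10 and 3.07 units above hESC in DFNB and 0 called. With the cell line as block, 1 was called in DFNB, ACTA2, a smooth muscle actin, at 2.80 units (block adjusted p = 0.041). That of 12 endoderm markers was 7.49 to 25.2, 14.4 to 25.3 and 36.5 to 52.1, with CER1 and FOXA2 at -7.05 and -5.77 units from hESC in DFNB and 0 called. With the block 2 were called in both media, APOA1, an apolipoprotein, at -3.59 units in FGF3+10 and -3.20 in DFNB (block adjusted p = 0.0259 and 0.0234), and GATA4, a transcription factor, at -3.14 and -2.97 (0.0499 and 0.0466). Of all genes, the block called 0.582% in FGF3+10 and 0.956% in DFNB. How far the cells marked by these lists share in the keratin levels was not tested.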
